A study of Mus musculus with 11 samples.

Results

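The genes described here are p53 target genes in the posterior neuroepithelium of the mouse embryo: Cdkn1a, Ccng1, Pmaip1, Bbc3, Trp53inp1, Mdm2, Sesn2 and Phlda3. They are 8 of 10 listed genes. The other listed genes, Trp53 itself and Bax, were not analysed here. Members were matched by name to probe sets that carry exactly 1 gene symbol, which gave 15 probe sets, and for each gene the probe set with the highest mean over all 11 arrays leads. The 8 genes stand among 18193 genes with such a probe set, of which 13338 were bright enough to test (a mean of at least 4.3 on the log2 scale), and all 8 leading probe sets were among these. The list was chosen by measured values, since it was drawn up after the differences of Cdkn1a and Pmaip1 between open and closed tissue had been seen. Its values by region are therefore a description. Calls by region are counted beside the share of all genes tested, and nothing is read from the counts.

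The p53 protein is a transcription factor that DNA damage and other stresses stabilise. Its targets fall into roles: Cdkn1a encodes p21, an inhibitor of cyclin-dependent kinases that arrests the cell cycle, Pmaip1 (Noxa) and Bbc3 (Puma) encode BH3-only proteins that open the way to apoptosis, and Mdm2 encodes the ubiquitin ligase that degrades p53 in a feedback loop. Excess p53 activity causes neural tube defects in mice, as the exencephaly of several mutants that loss of p53 relieves has shown. Several of these genes also answer to other inputs, Cdkn1a among them.

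RNA came from C57BL/6 embryos and was hybridized to Affymetrix mouse arrays. Open neuroepithelium (the flat neural plate caudal to the point of closure) gave 3 arrays at each stage, and closed neural tube (rostral to that point) gave 2 arrays at E8.5 and 3 arrays at E9.5. All tissue was freed by pancreatin and trypsin on ice, for 5 min at E8.5 and 8 min at E9.5, so digestion time and stage cannot be told apart. The notochord stayed attached, tissue was pooled by litter, and the open samples lie caudal to the closed ones, so closure and axial level cannot be told apart either. Replicates are labelled biological, but the labels do not say which litters entered which array. Values are the deposited log2 signal, on which a difference of 1 is a doubling, and each gene is compared only with itself, because signal is not comparable between probe sets. In such pieces of tissue, fewer cells that express a gene and less RNA per cell cannot be told apart.

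Marker genes differed between the tissues, each list given as the log2 of its summed signal. They go with axial level as much as with closure, so they do not test the labels open and closed. Neural progenitor markers were higher in closed tissue (13.3 to 13.4) than in open tissue (12.6 to 12.7), and caudal progenitor markers were lower in closed tissue (10.9 to 11.3) than on any open array (up to 13.2). Of 7 neural progenitor markers 4 were higher in closed tissue past the threshold at E8.5 and 5 at E9.5 (limma), and Sox3 and Cdh2 passed at neither stage. Presomitic mesoderm markers reached 9.80 to 10.9 in open and 7.29 to 7.82 in closed tissue. Of these markers Msgn1 was nearly level (closed minus open -0.05 at E8.5 and -0.04 at E9.5), and Ripply2 lay below the limit for testing. Whether the open samples held mesoderm was not tested. Array quality also varied, measured as the log2 signal at the 3′ end minus that at the 5′ end of control transcripts (mean of Actb and Gapdh). RNA integrity and amplification during labelling cannot be told apart in this measure. This 3′ minus 5′ signal was 1.14 to 1.20 on 4 arrays, 1 from each group, and 1.30 to 2.48 on the other 7. The 2 highest values were on open E9.5 replicates 1 and 2.

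Cdkn1a has a pair of annotated transcription starts in RefSeq (GRCm38.p6), and the 250 bases before each are shown because they differ in the p53 motif. Capitals mark matches to the p53 consensus decamer, 2 of which make a response element, or to GGGCGG, the core of the GC box, each on either strand. Mdm2 is shown beside them as a target with a different motif content in this window.
Cdkn1a start 1, chr17:29090729-29090978, plus strand: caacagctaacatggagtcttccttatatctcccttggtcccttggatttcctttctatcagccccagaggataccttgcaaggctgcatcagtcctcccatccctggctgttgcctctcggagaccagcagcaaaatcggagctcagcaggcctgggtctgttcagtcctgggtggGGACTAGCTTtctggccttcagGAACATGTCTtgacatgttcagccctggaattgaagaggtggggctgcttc
Cdkn1a start 2, chr17:29093519-29093768, plus strand: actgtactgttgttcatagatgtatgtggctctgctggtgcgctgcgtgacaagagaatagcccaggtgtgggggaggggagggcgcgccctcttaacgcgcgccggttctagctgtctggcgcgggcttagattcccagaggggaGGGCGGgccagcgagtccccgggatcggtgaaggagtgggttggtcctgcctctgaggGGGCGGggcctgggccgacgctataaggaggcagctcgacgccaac
Mdm2, chr10:117710759-117711008, minus strand: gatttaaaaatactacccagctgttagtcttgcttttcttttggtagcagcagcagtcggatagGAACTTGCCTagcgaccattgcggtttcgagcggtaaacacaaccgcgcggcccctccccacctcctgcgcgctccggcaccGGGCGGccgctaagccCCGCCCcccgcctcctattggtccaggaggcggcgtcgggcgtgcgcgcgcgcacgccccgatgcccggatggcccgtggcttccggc

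The first Cdkn1a window held 2 decamers, which begin 73 and 51 bases before the start and together form a response element (2 decamers at most 13 bases apart). Such an element was found in 0.0639% of 32851 windows of this length, and a single decamer in 7.13%. The second Cdkn1a window held no decamer and 2 matches to GGGCGG, a motif in 32.7% of windows. In the Mdm2 window, 1 decamer began 186 bases before the start and 2 GGGCGG matches lay nearer to it. The window of Ccng1 held 1 decamer, 185 bases before the start, and those of Phlda3, Sesn2 and Bbc3 held GGGCGG alone. No window matched TATAAA (12.4% of all windows) among the 6 measured members that had one. No window of Pmaip1 or Trp53inp1 was examined. Bases outside these windows were not scanned, so an element elsewhere in a gene would be missed. A match is a description of the letters in these windows and not a binding site. The leading probe set of a gene does not separate transcripts from its different starts.

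Cdkn1a signal was high in open tissue and low in closed tissue at both stages. At E8.5 the open arrays read 8.76, 8.67 and 9.25 and the closed arrays 6.67 and 6.78 (probe set 1424638_at). At E9.5 the open arrays read 9.84, 9.58 and 9.29 and the closed arrays 6.57, 6.37 and 6.31. All 6 open arrays lay above all 5 closed arrays, and within closed tissue the values stayed in a narrow band. The difference, closed minus open, was -2.16 (SE 0.20) at E8.5, a 4.48-fold lower level in closed tissue, and -3.15 (SE 0.18) at E9.5, 8.88-fold lower. A second probe set, 1421679_a_at, separated open (6.48 to 7.72) from closed tissue (5.08 to 5.87) in the same direction with smaller differences, -1.16 (SE 0.30) and -1.79 (SE 0.27).

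Pmaip1, whose product binds and neutralises MCL1, was also high in open tissue. Its open arrays read 10.17, 10.34 and 10.41 at E8.5, against 7.92 and 8.07 in closed tissue. At E9.5 the open arrays read 10.93, 11.01 and 11.20 and the closed arrays 9.29, 9.77 and 9.52. No closed array reached the lowest open array, and both tissues were higher at E9.5 than at E8.5. The differences were -2.31 (SE 0.15) at E8.5, or 4.98-fold, and -1.52 (SE 0.14) at E9.5, or 2.87-fold.

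Trp53inp1, a stress-induced nuclear protein that acts with p53 in arrest and death, followed the same order at smaller size. Open arrays read 8.43, 8.04 and 8.54 at E8.5, then 8.23, 8.39 and 7.97 at E9.5. Closed arrays read 7.59 and 7.26 at E8.5, then 7.40, 7.09 and 6.96 at E9.5. Again no closed array overlapped an open one. The differences were -0.91 (SE 0.20) at E8.5 and -1.04 (SE 0.18) at E9.5, or 1.88-fold and 2.06-fold lower in closed tissue. These sizes rest on the leading probe set: the other one, 1416927_at, lay below the limit for testing and differed by -0.13 and -0.01, and the mean of both differed by -0.52 and -0.53.

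**Figure D1:**
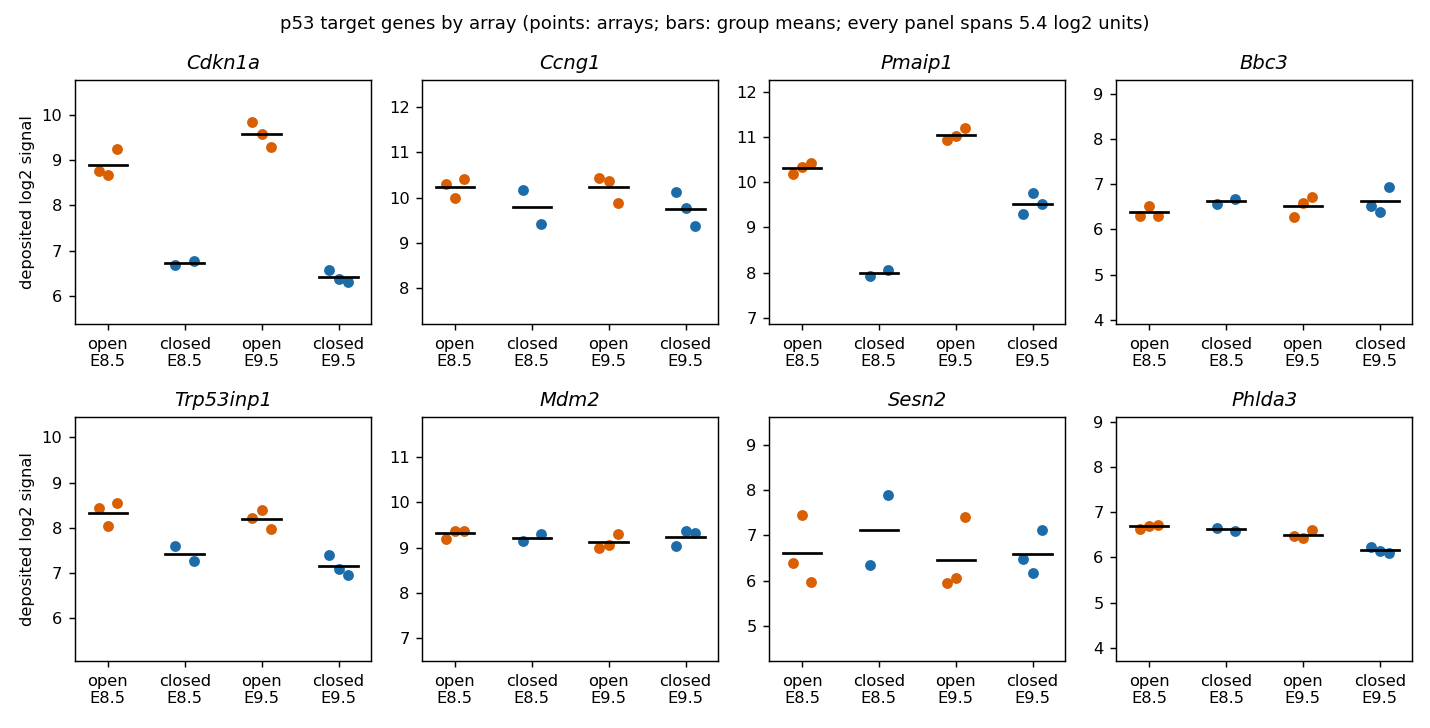
Deposited log2 signal (vertical axis) of the leading probe set of each of the 8 p53 target genes, by tissue and stage (horizontal axis), with 1 point per array and a bar at each group mean. Cdkn1a, Pmaip1 and Trp53inp1 separate open from closed arrays at both stages, and the open and closed arrays of Mdm2, Bbc3, Sesn2 and Ccng1 overlap over both stages.

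The leading probe sets of the other 5 targets did not separate the tissues at both stages, although Ccng1 and Phlda3 were lower on average in closed tissue. Mdm2 was nearly level, with open arrays from 8.99 to 9.38 and closed arrays from 9.03 to 9.37, and differences of -0.10 (SE 0.14; 95% interval -0.41 to 0.22) at E8.5 and 0.12 (SE 0.13; -0.16 to 0.41) at E9.5. Bbc3, the other BH3-only gene, leaned the opposite way from Pmaip1, at 0.25 (SE 0.18; -0.15 to 0.65) and 0.09 (SE 0.16; -0.27 to 0.45). Its open E8.5 arrays (6.30 to 6.53) lay below the closed ones (6.57 to 6.68) by a small gap, and its E9.5 groups overlapped.

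Ccng1, which encodes cyclin G1 and is among the most regular p53 targets, was lower on average in closed tissue, by -0.45 (SE 0.26; 95% interval -1.02 to 0.13) and -0.48 (SE 0.23; -0.99 to 0.04). Its leading probe set overlapped between tissues: the open arrays ran from 9.89 to 10.44 and the closed arrays from 9.37 to 10.16. A less bright Ccng1 probe set, 1450016_at, did not overlap, with open arrays at 7.64 to 8.03 and closed arrays at 7.23 to 7.56. It differed by -0.52 (SE 0.15) at E8.5 and -0.32 (SE 0.13) at E9.5. Another, 1450017_at, differed by -0.42 (SE 0.18) and -0.36 (SE 0.16). At E8.5 the leading value rested on 1 closed array: it was -0.82 without closed replicate 1 and -0.08 without closed replicate 2. With the 3′ minus 5′ signal in the model the differences of Ccng1 were -0.61 (SE 0.16) at E8.5 and -0.17 at E9.5.

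Phlda3, an inhibitor of AKT signalling, differed little at E8.5 (-0.07, SE 0.12) and by -0.35 (SE 0.10) at E9.5, where the open arrays read 6.47, 6.43 and 6.61 and the closed arrays 6.23, 6.15 and 6.09. Its groups overlapped at E8.5 and did not overlap at E9.5. Sesn2, a stress-induced regulator of mTORC1 signalling, spread widely within every group. Its open arrays read 6.38, 7.46 and 5.97 at E8.5, then 5.94, 6.05 and 7.40 at E9.5, and its closed arrays 6.35 and 7.88, then 6.47, 6.16 and 7.11. The differences, 0.51 (SE 0.56) and 0.12 (SE 0.50), were no larger than their errors.

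Counted over the list, 3 of the 8 genes were lower in closed tissue past the threshold (limma with Benjamini-Hochberg adjustment over all genes tested, adjusted p under 0.05) at each stage, 0 were higher and 5 did not pass. Over all genes tested, 3.38% were called lower and 3.79% higher at E8.5, and 5.79% lower and 2.75% higher at E9.5. The same contrast led to the choice of the list, so nothing is read from these shares. The median difference of the 8 genes was -0.27 at E8.5 and -0.41 at E9.5, against 0.0015 and -0.0069 for all genes tested. Groups did not overlap for 4 of the 8 genes at E8.5 (Cdkn1a, Pmaip1, Trp53inp1 and, in the opposite direction, Bbc3), where 27.5% of all genes tested did not overlap. At E9.5 they did not overlap for 4 (Cdkn1a, Pmaip1, Trp53inp1 and Phlda3), against 22.5% of all genes tested. The E8.5 count fell to 2, by the loss of Trp53inp1, without open E8.5 replicate 1 (-0.86), open E8.5 replicate 3 (-0.81) or closed E8.5 replicate 2 (-0.75). The listed targets thus did not share 1 order between the tissues: the arrest gene Cdkn1a, the death gene Pmaip1 and Trp53inp1 were lower in closed tissue on every array, while the open and closed arrays of the feedback gene Mdm2 overlapped at both stages and those of the death gene Bbc3 at E9.5.

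**Figure D2:**
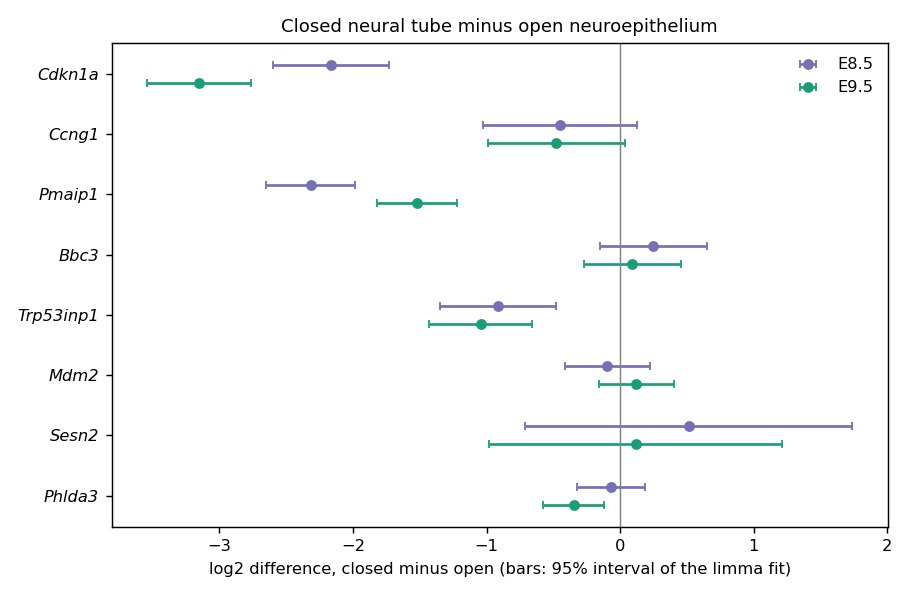
Difference in log2 signal, closed minus open (horizontal axis), for each of the 8 genes (vertical axis) at E8.5 and E9.5, with the 95% interval of the limma fit. The intervals of Cdkn1a, Pmaip1 and Trp53inp1 lie below 0 at both stages, and those of Mdm2, Bbc3, Ccng1 and Sesn2 include 0 at both.

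The marker and quality values bear on this comparison. Caudal progenitor (4 of 4 tested) and presomitic mesoderm markers (3 of 4) were lower in closed tissue at both stages. Of the surface ectoderm markers 3 of 4 were lower in closed tissue at E8.5 and 2 of 4 at E9.5. At E9.5 Krt8 (0.51) and Krt18 (0.009) were not lower. The summed surface ectoderm level overlapped at that stage, at 9.17 to 9.68 in closed and 9.65 to 9.79 in open tissue. Of the endothelial markers 4 of 5 were below the limit for testing, and the one tested, Kdr, was higher in closed tissue at E9.5 (0.69, limma adjusted p = 0.0098). The notochord markers Shh and Chrd were lower in closed tissue at E8.5 (2 of 3), and Shh and Foxa2 were higher there at E9.5 (2 of 3). The summed notochord level was 10.4 to 10.7 in closed tissue at E8.5, below every open array of that stage (up to 11.3), and at E9.5 it was 11.1 to 11.4 in closed and 10.5 to 10.8 in open tissue. Among somite markers Pax3, which the dorsal neural tube also expresses, was higher in closed tissue at both stages (1 of 3), and among endoderm markers Cldn6 at E8.5 and Foxa1 at E9.5 were lower (1 of 4 each). The part of these cell types in the Cdkn1a and Pmaip1 differences was not tested. With the 3′ minus 5′ signal in the model, Cdkn1a differed by -2.23 at E8.5 and -3.02 at E9.5, close to its values without it.

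From E8.5 to E9.5, Pmaip1 rose in both tissues. This comparison is not the one that led to the choice of the genes, but it uses the same arrays, and earlier results of these data were known. In open tissue it rose by 0.74 (SE 0.14, 1.67-fold, limma adjusted p = 0.00768), and all 3 E9.5 arrays lay above all 3 E8.5 arrays. In closed tissue it rose by 1.53 (SE 0.15, 2.89-fold, limma adjusted p = 0.0002), from 7.99 ± 0.10 (SD, n = 2) to 9.53 ± 0.24 (SD, n = 3), again without overlap. Pmaip1 was the only listed gene past the threshold in either tissue, 1 of 8 in each (5.02% of all genes tested passed in open and 2.42% in closed tissue), where 3.61% of all genes tested were called higher in open and 0.96% in closed tissue. The stages did not overlap for Cdkn1a, Pmaip1 and Phlda3 in either tissue, 3 of 8, against 21.8% of all genes tested in open and 21.2% in closed tissue. With open E9.5 replicates 1 and 2 both left out, the arrays of highest 3′ minus 5′ signal, the open difference was 0.90. That fit leaves only replicate 3 in the group, so no call is read from it.

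The Cdkn1a means differed in opposite directions in the 2 tissues, without a call in either. In open tissue it went from 8.89 ± 0.31 to 9.57 ± 0.28 (SD, n = 3 each), a difference of 0.68 (SE 0.18; 95% interval 0.29 to 1.07) whose limma adjusted p was 0.0534, just outside the threshold. The groups did not overlap. With single arrays left out the difference ran from 0.54 to 0.85 and the limma adjusted p from 0.0168 to 0.219. It was 0.0236 without open E8.5 replicate 3 and 0.0168 without open E9.5 replicate 3. The second probe set, 1421679_a_at, differed by 0.30 (SE 0.27, limma adjusted p = 0.64 over probe sets). Of the 8 genes, 2 had an unadjusted p under 0.05 in each tissue (Cdkn1a and Pmaip1 in open, Pmaip1 and Phlda3 in closed), as 17.5% and 10.2% of all genes tested had. In closed tissue Cdkn1a went from 6.73 ± 0.075 (n = 2) to 6.42 ± 0.13 (n = 3), by -0.31 (SE 0.20, limma adjusted p = 0.781). With the 3′ minus 5′ signal in the model the open difference was 0.49 (adjusted p = 0.118).

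Phlda3 differed by -0.46 (SE 0.12) between the stages in closed tissue, with a limma adjusted p of 0.0697, and by -0.18 (SE 0.10, adjusted p = 0.405) in open tissue. The remaining genes gave small stage differences in open tissue: -0.20 for Mdm2, -0.01 for Ccng1, 0.15 for Bbc3, -0.14 for Trp53inp1 and -0.14 for Sesn2, with limma adjusted p-values from 0.464 to 0.993. In closed tissue these 5 genes ran from -0.54 (Sesn2, SE 0.56) to 0.02 (Mdm2, SE 0.14). The median of all 8 was -0.07 in open and -0.16 in closed tissue, against -0.02 and -0.03 for all genes tested.

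**Figure D3:**
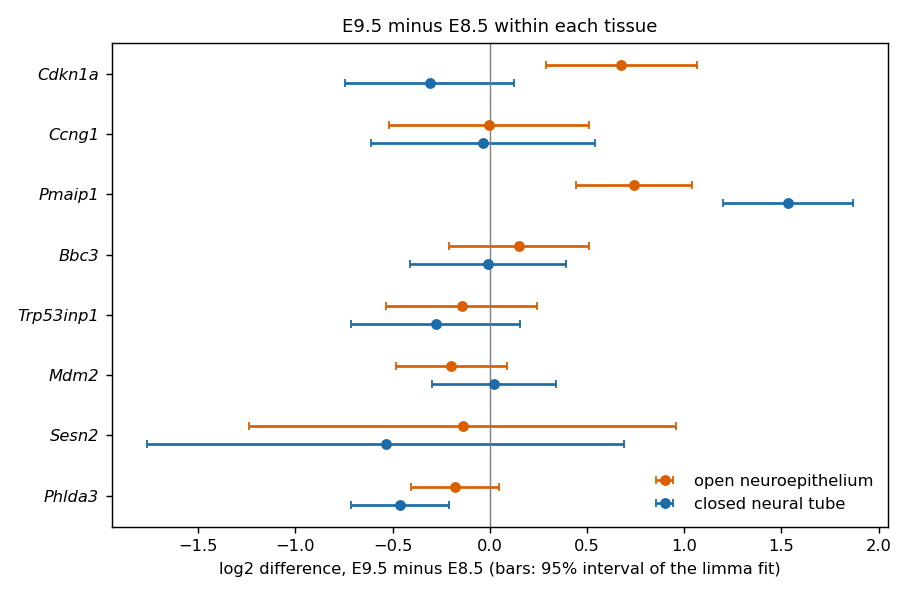
Difference in log2 signal, E9.5 minus E8.5 (horizontal axis), for each of the 8 genes (vertical axis) in open and in closed tissue, with the 95% interval of the limma fit. Pmaip1 lies above 0 in both tissues, and Cdkn1a lies above 0 in open tissue and below 0, with an interval that includes 0, in closed tissue.

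Whether the tissues differed more at one stage than at the other was described by the interaction of region and stage. It is built from the same region differences that led to the choice of Cdkn1a and Pmaip1. Its values, intervals and counts for the listed genes are therefore a description, and nothing is read from the counts. The closed minus open value at E9.5 less that at E8.5 was -0.99 (SE 0.27; 95% interval -1.57 to -0.40) for Cdkn1a and 0.79 (SE 0.20; 0.35 to 1.24) for Pmaip1. Of the 8 genes 0 were past the threshold (limma) and 2, these same genes, had an unadjusted p under 0.05, where 1.25% and 9.6% of all genes tested were. All contrasts share arrays, so these values are not independent of those given for each region and stage.

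Markers and quality moved with stage too. The summed blood markers were at 7.43 to 9.51 on open E8.5 arrays and 12.3 to 12.8 on open E9.5 arrays, with 3 of 4 tested past the threshold. In closed tissue they were at 9.53 to 9.74 and 11.1 to 12.5, with 0 of 4 past it (limma; 3 with an unadjusted p under 0.05). Other markers passed by stage too. In open tissue Sox1, Pax3 and Tcf15 were higher at E9.5 and Hes5, Hes7, Shh and Krt8 lower, and in closed tissue Cdx2, Dll3 and Shh were higher and Pax6 lower. The part of these cell types in the Pmaip1 stage difference was not tested. With the 3′ minus 5′ signal in the model, Pmaip1 rose by 0.89 in open tissue (limma adjusted p = 0.00121).

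Some probe sets split by the 3′ minus 5′ signal. On the 4 arrays with the lowest 3′ minus 5′ signal the leading Sesn2 probe set read 7.11 to 7.88, and on the other 7 it read 5.94 to 6.47. The second Mdm2 probe set, 1427718_a_at, split the same way, at 7.02 to 7.29 against 6.13 to 6.88. The second Sesn2 probe set (1451599_at, 5.89 to 6.32 against 5.87 to 6.35) did not split. For the leading Cdkn1a probe set this split cannot decide, because the 4 arrays come from both tissues and its values differ by tissue. Within groups, Cdkn1a on these arrays was lowest in open E8.5, open E9.5 and closed E9.5 and highest in closed E8.5. The Sesn2 stage difference in open tissue, -0.14 as fitted, was 0.80 (SE 0.36) with the 3′ minus 5′ signal in the model, so its direction is not settled.

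**Figure D4:**
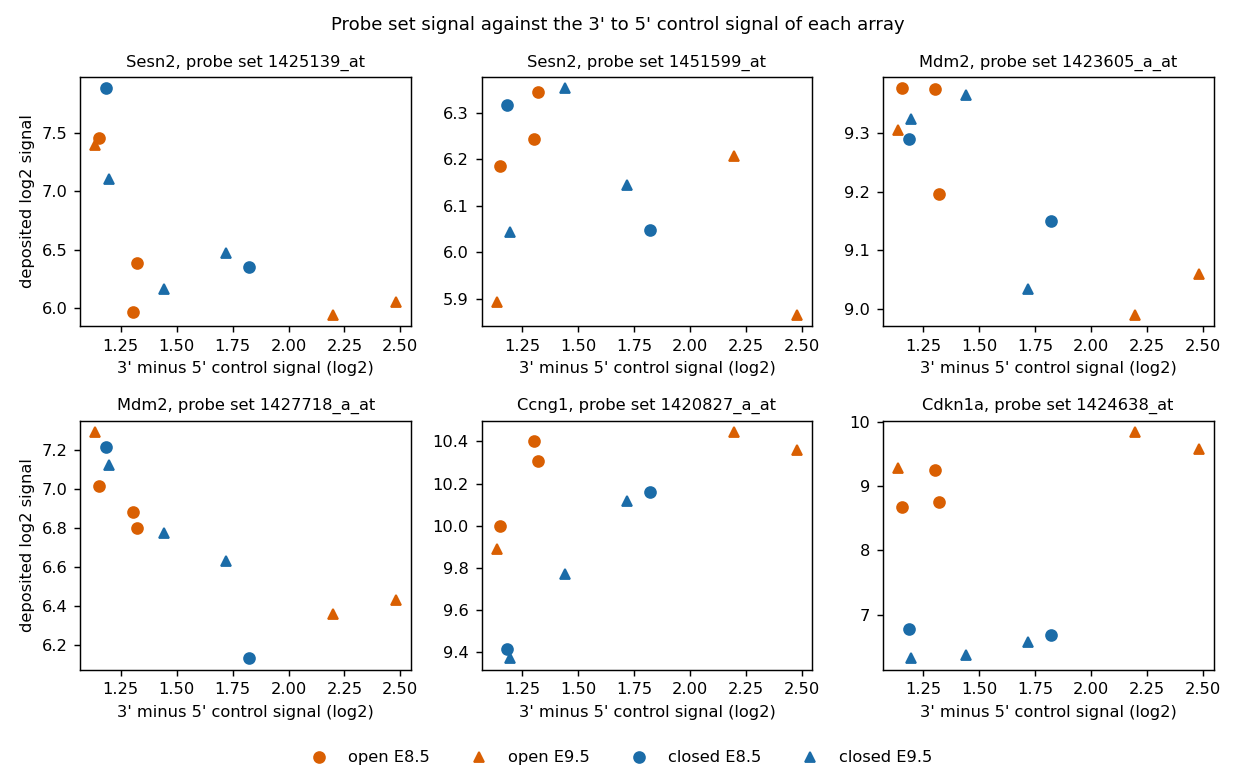
Deposited log2 signal of 6 probe sets (vertical axes) against the 3′ minus 5′ control signal (mean of Actb and Gapdh) in log2 units (horizontal axes), 1 point per array, coloured by tissue and shaped by stage. The leading Sesn2 and second Mdm2 probe sets are high on the 4 arrays between 1.14 and 1.20 and lower on the other 7, while Cdkn1a separates by tissue.

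A wider set of 39 p53 targets held genes that were higher and genes that were lower in closed tissue. Of 34 tested at E8.5, 2 were higher in closed tissue, 1 was lower and 31 did not pass (7.17% of all genes tested passed in either direction), with a median of 0.02 (all genes tested, 0.0015). At E9.5, 1 was higher, 4 were lower and 29 did not pass (8.54% of all genes tested passed), with a median of -0.04 (all genes tested, -0.0069). Past the threshold at either stage were 7 genes, of which Gadd45a alone passed at both, and 27 passed at neither. An unadjusted p under 0.05 was found for 8 of the 34 at E8.5 and 14 at E9.5, where 14.9% and 19.2% of all genes tested had one.

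Gadd45a, a stress-induced protein of DNA repair and demethylation, went against Cdkn1a. Its open arrays read 7.06, 7.12 and 7.31 at E8.5, then 6.78, 7.17 and 6.50 at E9.5, and its closed arrays 9.09 and 8.52, then 8.73, 8.84 and 8.12. It was higher in closed tissue by 1.64 (SE 0.25, 3.11-fold, limma adjusted p = 0.00158) and 1.75 (SE 0.23, 3.36-fold, adjusted p = 0.000365). Plk3, a stress-activated kinase of the polo family, was higher in closed tissue at E8.5 by 0.69 (SE 0.12, limma adjusted p = 0.00305).

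Plk2, another polo-like kinase, was lower in closed tissue at E8.5 by -0.91 (SE 0.25, limma adjusted p = 0.0485). At E9.5 the lower genes were Sesn1 (-0.71, SE 0.13, limma adjusted p = 0.00477), a relative of Sesn2, and Perp (-0.84, SE 0.19, adjusted p = 0.0159), a desmosome component and death effector, together with Ddit4 (-1.12, adjusted p = 0.0313), an inhibitor of mTORC1, and Abhd4 (-0.58, adjusted p = 0.0454). Ddit4 and Abhd4 are named although they were singled out after their values were seen. The calls of Plk2 and Abhd4 were fragile: they were lost without any 1 of 8 and any 1 of 7 single arrays, with adjusted p-values up to 0.407 and 0.185. Plk2 was at -0.50 without closed E8.5 replicate 2 and at -0.45 as the mean of its probe sets. Perp lost its call without open E9.5 replicate 1 or 2 or closed E9.5 replicate 2 or 3 (adjusted p 0.0646 to 0.0751), and Ddit4 without open E9.5 replicate 1 or closed E9.5 replicate 1 or 2 (0.0777 to 0.116). With open E9.5 replicates 1 and 2 both left out, Perp was at -0.43, Abhd4 at -0.29, Ddit4 at -0.79 and Sesn1 at -0.51. That fit leaves 1 array in the group, so no call is read from it. The calls of Gadd45a, Plk3 and Sesn1 held with any single array left out.

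Of the same 34 genes 0 passed by stage in either tissue or in the interaction (limma). Over all genes tested, 5.02% passed by stage in open tissue, 2.42% in closed tissue and 1.25% in the interaction. An unadjusted p under 0.05 was found for 11 of the 34 in open tissue, 6 in closed tissue and 8 in the interaction, where 17.5%, 10.2% and 9.6% of all genes tested had one, so that each of these counts lay above the share of all genes. No test of the list was made.

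**Figure D5:**
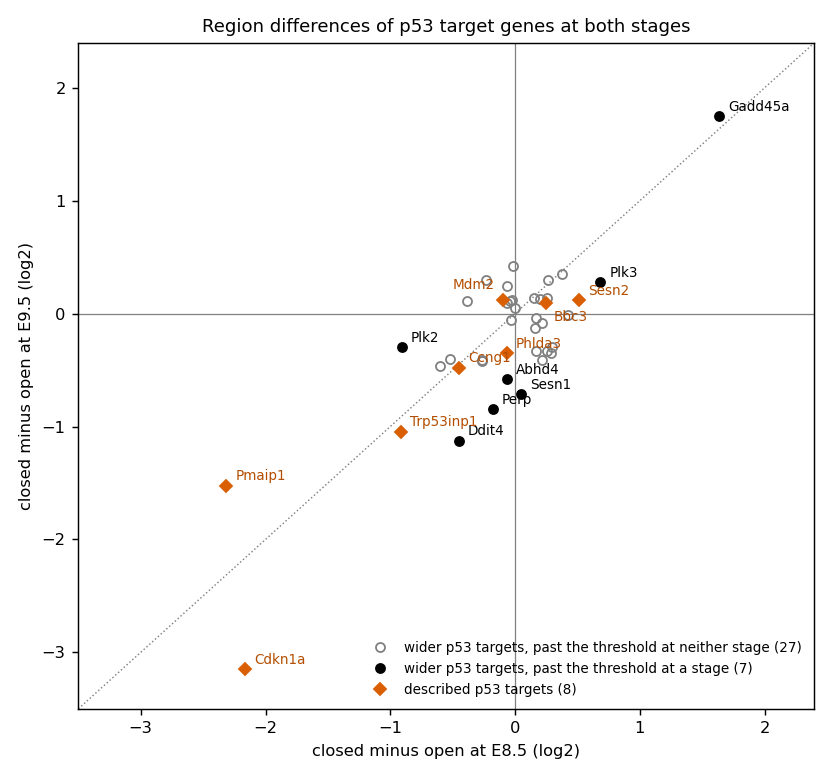
Closed minus open difference in log2 signal at E8.5 (horizontal axis) and E9.5 (vertical axis) for 34 wider p53 targets (circles, filled for the 7 past the threshold at a stage) and the 8 listed genes (diamonds). Cdkn1a and Pmaip1 lie far to the lower left, Gadd45a lies to the upper right, and most targets lie near the origin.

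Genes that act on p53 were looked at in the same way. Of 19 listed regulators and relatives of p53, 16 were tested, among them the kinases Atm, Atr, Chek1 and Chek2 and the inhibitor Mdm4, and 0 of these 16 passed in any of the 5 contrasts (limma). At called shares of 7.17% and 8.54% between tissues, 5.02% and 2.42% by stage and 1.25% in the interaction over all genes, a list of this length would hold few calls in any case. An unadjusted p under 0.05 was seen for 1 at E8.5 and 0 at E9.5 between tissues, for 2 and 0 by stage in open and closed tissue, and for 1 in the interaction, against 14.9%, 19.2%, 17.5%, 10.2% and 9.6% of all genes tested. Their region differences ran from -0.08 to 0.35 at E8.5 and from -0.23 to 0.30 at E9.5.

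The cell-cycle genes that p21 represses through the DREAM complex were 20 in the list. Of 18 tested, 0 passed in any of the 5 contrasts (limma), with 0 and 1 at an unadjusted p under 0.05 between tissues at E8.5 and E9.5, 4 and 1 by stage in open and closed tissue and 0 in the interaction. The shares of all genes tested given above for the regulators apply here too, and at those shares 0 of 18 is near the background. Their region differences ran from -0.07 to 0.27 at E8.5 and from -0.32 to 0.38 at E9.5.

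Of 6 tested CDK inhibitors other than Cdkn1a, 0 passed between tissues (2 at E8.5 and 1 at E9.5 with an unadjusted p under 0.05, against 14.9% and 19.2% of all genes tested), which at called shares of 7.17% and 8.54% is near the background. Cdkn1c, which encodes p57 and marks cells that leave the cycle, rose with stage in closed tissue by 1.80 (SE 0.23, 3.48-fold, limma adjusted p = 0.0012), and differed by 0.67 in open tissue (adjusted p = 0.1). Of 15 tested BCL2 family genes other than those described, 0 passed between tissues and 3 and 1 had an unadjusted p under 0.05, read against the same shares. Among these Bnip3, a mitochondrial BH3 protein induced by hypoxia, fell by 0.55 with stage in open tissue (limma adjusted p = 0.0482), a call that was lost without any 1 of 7 single arrays (adjusted p up to 0.186).

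Of 16 tested genes of the stress and dissociation response, 0 passed between tissues (7.17% and 8.54% of all genes tested), and 2 and 1 had an unadjusted p under 0.05 (14.9% and 19.2%), none of which stands apart from the background. Jun, an immediate early gene, rose with stage in open tissue by 0.90 (SE 0.14, limma adjusted p = 0.00247) and differed by 0.09 in closed tissue. With open E9.5 replicates 1 and 2 both left out, the open difference of Jun was 0.67. That fit leaves 1 array in the group, so no call is read from it.

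Likeness across the 11 arrays was taken as Pearson's r of log2 signal, a description in which arrays of one tissue share most of the agreement. The genes most like Cdkn1a were Lmo2 (0.992), AW551984 (0.989), Ets2 (0.987), Lmo7 (0.983), Sema6a (0.983) and Cyp26a1 (0.982). Cyp26a1, which degrades retinoic acid in the caudal embryo, differed by -4.11 at E8.5 and -5.28 at E9.5, and its r with Cdkn1a fell to 0.07 once group means were removed, while Ets2 kept 0.76. The genes most like Pmaip1 were Wnt5a (0.984), Tesk2 (0.984), Abcg2 (0.977), Spry1 (0.977), Il17rd (0.975) and Gpc4 (0.974). Wnt5a is a caudal signalling ligand, and Spry1 and Il17rd are feedback inhibitors of FGF signalling. Of the 39 wider targets 34 were ranked, and none of them was among these 12 genes of 13337. A list of 34 genes would hardly ever reach so short a ranking, so nothing is read from this.

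Among the listed genes, Trp53inp1 was the most like Cdkn1a (r = 0.917, rank 127 of 13337 genes), followed by Pmaip1 (0.813, rank 444), Ccng1 (0.686, rank 1041) and Phlda3 (0.559, rank 1739). Mdm2 (-0.20), Sesn2 (-0.26) and Bbc3 (-0.44) had an r below 0. Removing group means left Cdkn1a and Pmaip1 at -0.24, so the agreement between these genes lay in the group means and not in the deviations of single arrays. Other pairs of listed genes differed in this. With group means removed, r ran from -0.88 (Ccng1 with Sesn2) to 0.93 (Pmaip1 with Mdm2). Ccng1 with Trp53inp1 was at 0.83 before and 0.90 after removal. On the 4 arrays of lowest 3′ minus 5′ signal, 1 from each group, Ccng1 and Trp53inp1 were at their lowest within the group. Sesn2 was at its highest within the group on the same arrays. The part of array quality in these r values was not tested. All r values are over 11 arrays.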

How the data were processed

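The authors' deposited values are log2 signal, from 2.37 to 14.7, for 45101 probe sets on each of 11 Affymetrix arrays. Submitters' processing notes name MAS5 without a version; how background was corrected and arrays were normalized is not given in the sources used here, and no further normalization was applied. The labels' protocols give labelling in a 2-cycle protocol from tissue of 111 embryos pooled by litter. Arrays carry no read depth, and their number limits the precision.

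Probe sets with 1 gene symbol (34945) were kept, and those with several (932) and 64 control probe sets were left out. Each gene was taken by its probe set of highest mean, and genes were tested where that mean reached the 40th percentile of probe set means (4.3). The 4 group means were fitted in 1 model with limma 3.58.1 in R 4.3.3 (eBayes with an intensity trend, 7 residual and 4.4 prior degrees of freedom), with Benjamini-Hochberg adjustment over 13338 genes. P-values measure the spread between these arrays. The script was tested on simulated data. The listed genes and the lists of wider targets, p53 regulators, CDK inhibitors, BCL2 family, DREAM, stress and marker genes were chosen with earlier results of these data known. From each list and contrast, the text could name the 2 called genes with the smallest p each way, besides the listed genes and the 6 genes most like Cdkn1a and Pmaip1. Promoter windows are RefSeq's. Alternatives covered the filter, normalization, probe set rule, threshold, variance model, arrays fitted or left out, the 3′ minus 5′ signal and a replicate block.

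Same-numbered open and closed arrays deviated together (r of deviations from group means 0.576 and 0.697 for the E8.5 pairs, then 0.308, 0.341 and 0.687 for the E9.5 pairs). The labels do not say that a number marks shared litters. The reported fit did not pair arrays, and a replicate block was used only as an alternative. At E8.5 the 2 closed arrays deviate as mirror images, so the r of an open array with each differs only in sign. The highest r of each stage, 0.697 and 0.687, joined 2 of the 4 arrays of lowest 3′ minus 5′ signal. Some arrays with different numbers deviated together as much (0.309 for open 3 with closed 1 at E8.5, 0.317 for open 2 with closed 1 and 0.264 for open 1 with closed 2 at E9.5), so the pairing is weakly supported.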

Additional observations from a re-analysis of the deposited data

How the results depend on the processing

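The number of listed genes past the threshold was 3 and 3 between tissues at E8.5 and E9.5, 1 and 1 by stage and 0 in the interaction, and 108 of 124 counts under other settings lay within 1.5 times of these. No count is given here with open E9.5 replicates 1 and 2 both left out, which leaves 1 array in that group. By stage in open tissue the number past the threshold was 0 with a limit of 1 on the log2 difference. It was 0 with second probe sets (4 genes tested), 2 without a trend, 4 with array weights and 1 to 2 with single arrays left out. In closed tissue it was 2 with the mean of all probe sets, 0 with second probe sets, 2 without a trend and 2 with the 3′ minus 5′ signal, and 1 throughout with single arrays left out. Between tissues at E9.5 it was 5 with the mean of all probe sets and with array weights (adding Ccng1 and Phlda3). It was 4 without a trend, 1 with second probe sets and 3 with any single array left out. At E8.5 it was 2 with the limit of 1, 4 with the mean of all probe sets and with the 3′ minus 5′ signal, 0 with second probe sets and 2 to 3 with arrays left out. In the interaction it was 1 with array weights (Pmaip1) and 0 with arrays left out. Fewer genes were tested with second probe sets; otherwise the cause was not tested. With the replicate block the counts were 3, 3, 1, 1 and 0, and the block changed no other call of a listed gene. Counts between tissues and in the interaction remain a description, because region differences led to the choice of the list.

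Signs turned only for differences that were not past the threshold as reported. Between tissues at E9.5, with open E9.5 replicates 1 and 2 both left out, Sesn2 was -0.82, Mdm2 -0.0651 and Bbc3 -0.10, and with the 3′ minus 5′ signal they were -0.56, -0.00236 and -0.0339. At E8.5 Sesn2 was -0.0762 with the second probe set and -0.25 without closed E8.5 replicate 2. Single arrays left out also turned Bbc3 and Sesn2 at E9.5, as low as -0.0706 and -0.15. Ccng1 by stage in closed tissue was 0.019 with quantile normalization, 0.061 with the second probe set and 0.0589 with the replicate block, and in open tissue 0.000505 with median centring and 0.11 with array weights. Its interaction was 0.0498 with quantile normalization, 0.077 with the mean of probe sets, 0.20 with the second, 0.065 with the replicate block, 0.44 with the 3′ minus 5′ signal and 0.31 with open E9.5 replicates 1 and 2 both left out. Bbc3 was 0.022 in closed tissue with quantile normalization and -0.0219 in open tissue with array weights, and Mdm2 was -0.0334 in closed tissue with the replicate block. Sesn2 was 0.80 in open tissue with the 3′ minus 5′ signal and 0.79 without both arrays, and its interaction was 0.27 with the second probe set. The Trp53inp1 interaction was 0.17 with the 3′ minus 5′ signal and 0.0919 without both arrays. With single arrays left out, Ccng1 ran from -0.12 to 0.16 in open and -0.41 to 0.34 in closed tissue, and Sesn2 from -0.61 to 0.29 and -1.30 to 0.23. Mdm2 ran from -0.0486 to 0.13 and Bbc3 from -0.17 to 0.11 in closed tissue. The interactions ran from -0.40 to 0.35 for Ccng1, -0.30 to 0.0288 for Trp53inp1 and -1.16 to 0.37 for Sesn2.

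Over all genes tested, array weights called 3424 at E9.5 (1139 in the fit reported), 4301 (670) by stage in open and 215 (323) in closed tissue. Fitting only the groups compared called 150 in closed tissue. The 3′ minus 5′ signal called 1519 (957) at E8.5, 1764 at E9.5, 730 by stage in closed tissue and 297 (167) in the interaction. Counts without open E9.5 replicates 1 and 2 are not given, since 1 array is left in that group. Single arrays left out gave 367 to 1262 in open tissue, as few as 174 in closed tissue and as few as 84 in the interaction. Of calls by stage in open tissue 71.8% were higher, and 61.3% with quantile normalization.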
